A study of Mus musculus with 4 samples.

Results

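The genes described here are 41 genes of the lysosome, among them 11 proteases of the cathepsin and napsin kind. They were chosen by name from a list and not by a limit on any measured value, though earlier results of these data were known. All 41 were present in the gene lists of both single-cell experiments, as 41 of 32285 genes for the CD45 sort and 41 of 31053 genes for the T cell sort, each on a single row. Lysosomes are acidic organelles in which cells break down material that they have taken up or no longer need. Proton pumps of the V-ATPase family acidify the lumen, cathepsins and other proteases cut proteins, glycosidases and lipases with their activator proteins take apart sugars and lipids, and heavily glycosylated membrane proteins line the organelle. In macrophages and dendritic cells the same enzymes process engulfed material, and in antigen-presenting cells cathepsins trim the invariant chain and peptides for presentation.

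The samples came from B16-F10 melanoma, a mouse melanoma line, in a single clone that makes the green fluorescent protein ZsGreen (ZsG) under control of doxycycline (dox). The tumors grew under the skin of wild-type C57BL/6 mice that drank dox, and tumor-infiltrating cells were taken on day 8. In the CD45 sort, cells carrying the immune marker CD45 were divided by ZsG into 2 libraries, negative and positive, and in the T cell sort cells that also carried the T cell receptor beta chain were divided in the same way. Host immune cells carry no ZsG gene, so ZsG in them marks tumor-derived material. All groups shared tumor, clone, host strain, dox and day, and how many mice were pooled per library is not stated by the labels or methods. By the study's methods the ZsG-positive gate of the CD45 sort was set on bright cells, so that most lymphocytes with dimmer ZsG were sorted as negative.

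Each condition was a single droplet library of 3′ ends, with 5437 and 5168 barcodes in the ZsG-negative and ZsG-positive libraries of the CD45 sort and 1136 and 2396 in those of the T cell sort. The total UMI counts were 47537541, 56510578, 10030971 and 22100220 in the same order (a UMI, unique molecular identifier, stands for 1 captured RNA molecule). With 1 library per condition there is no replicate and no test of a condition is possible. All intervals below are exact 95% intervals that cover counting error only. Both libraries of a sort shared 6 (CD45) and 1 (T cell) barcode sequences. The labels of the T cell sort contradict each other on which barcode suffix is ZsG-positive. The library with 2396 barcodes was taken as ZsG-positive, and if the other reading holds, the names of its libraries swap throughout and every ZsG-positive over ZsG-negative ratio given for it is inverted.

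Cells were put into classes by how many of 8 marker genes of a class had a UMI, and none of the markers is among the 41 genes. A class is a range of marker counts, so it is called macrophage-like, T-like and so on. In the CD45 sort 3 and 1474 cells (ZsG-negative and ZsG-positive) were macrophage-like, 241 and 1475 classical monocyte-like, 217 and 25 plasmacytoid dendritic cell (pDC)-like, 2401 and 101 NK/ILC-like and 1494 and 255 T-like. The conventional dendritic cell classes were smaller, with 18 and 78 DC1-like, 26 and 84 DC2-like and 13 and 70 mature DC-like cells. The share of cells whose class led the next by only 1 marker was 30.3% for macrophage-like cells, 26.4% for classical monocyte-like cells and 69.0% for DC2-like cells in the ZsG-positive CD45 library. No class remained for 4.36% and 13.4% of the kept cells of the CD45 sort. In every class of at least 20 cells all 8 of its own markers were found in at least 10% of the cells. Since the cells were chosen by these same markers, this is no independent check of the classes. The ZsG-positive CD45 library carried macrophage-marker RNA in all its classes, with a median of 2 of 8 macrophage markers per T-like cell against 0 in the ZsG-negative library. The T cell sort was not pure by these markers. Of its 1879 kept ZsG-positive cells 729 were T-like, 619 pDC-like, 137 classical monocyte-like and 121 macrophage-like, and of 948 ZsG-negative cells 647, 123, 48 and 33 were. A median of 0 of 8 T cell markers had a UMI in the macrophage-like, classical monocyte-like and pDC-like cells of this sort.

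The stretches of DNA before the start of the genes are given here for 5 members, because several lysosomal genes share the letters CACGTG, the core of a box that the lysosomal regulator TFEB and its relatives can bind. The sequences are from RefSeq for GRCm38.p6, 250 bases that end just before the start site, 5′ to 3′ on the strand of the gene, with CACGTG in capitals. CACGTG reads the same on both strands. Lamp1 (a main glycoprotein of the lysosomal membrane, chr8:13158911-13159160, plus strand) held 4 copies, beginning 61, 45, 28 and 15 bases before the start. Atp6v0b (a membrane subunit of the V-ATPase, chr4:117887330-117887579, minus strand) held 2, and Glb1 (beta-galactosidase, chr9:114400828-114401077, plus strand) held 1. Cd68 (chr11:69666171-69666420, minus strand) and Ppt1 (chr4:122835977-122836226, plus strand), both described below for their levels in particular classes, held none.
Lamp1: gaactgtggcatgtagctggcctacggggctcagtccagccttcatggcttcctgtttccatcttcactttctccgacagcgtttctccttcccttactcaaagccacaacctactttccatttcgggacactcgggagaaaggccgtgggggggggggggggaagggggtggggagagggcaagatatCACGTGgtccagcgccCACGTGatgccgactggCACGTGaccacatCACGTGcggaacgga
Atp6v0b: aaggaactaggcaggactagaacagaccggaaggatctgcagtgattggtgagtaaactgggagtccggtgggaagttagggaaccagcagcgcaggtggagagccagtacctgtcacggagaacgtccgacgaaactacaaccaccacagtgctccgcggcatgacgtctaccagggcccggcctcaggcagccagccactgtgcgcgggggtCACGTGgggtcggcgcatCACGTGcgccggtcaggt
Glb1: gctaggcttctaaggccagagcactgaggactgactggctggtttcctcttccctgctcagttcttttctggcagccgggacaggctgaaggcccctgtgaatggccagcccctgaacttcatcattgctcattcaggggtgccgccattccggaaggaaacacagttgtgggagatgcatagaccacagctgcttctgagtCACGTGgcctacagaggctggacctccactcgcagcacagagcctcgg
Cd68: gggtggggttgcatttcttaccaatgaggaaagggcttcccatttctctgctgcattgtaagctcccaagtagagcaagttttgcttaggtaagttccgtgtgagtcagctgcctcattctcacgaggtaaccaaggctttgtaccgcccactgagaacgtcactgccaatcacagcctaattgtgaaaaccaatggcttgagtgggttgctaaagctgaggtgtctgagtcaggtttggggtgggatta
Ppt1: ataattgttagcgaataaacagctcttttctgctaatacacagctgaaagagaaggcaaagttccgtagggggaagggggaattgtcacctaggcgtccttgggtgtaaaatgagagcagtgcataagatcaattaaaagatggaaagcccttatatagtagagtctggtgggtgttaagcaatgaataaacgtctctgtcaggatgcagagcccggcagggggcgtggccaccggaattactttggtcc

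Of the 41 genes, 33 had a promoter of 300 bases (250 before and 50 after the start) in the RefSeq table, and Ctsb, Ctse, Ctsh, Npc1, Atp6v1b2, Atp6v1h, Asah1 and Napsa did not. CACGTG was found in a promoter of 11 of the 33 (33.3%), namely Ctsa, Ctsd, Ctsl, Lamp1, Lgmn, Gla, Glb1, Atp6v0d1, Atp6v0b, Atp6v1a and Mcoln1, against 2187 of 27025 genes in the table (8.09%). With the 7 letters TCACGTG or CACGTGA, which contain CACGTG, the shares were 10 of 33 (30.3%) and 1160 of 27025 (4.29%). A second list of 58 other lysosome genes, 43 of them with a promoter in the table, held CACGTG in 12 (27.9%). Of the 11 members with CACGTG, Ctsd, Ctsl and Lgmn passed 2-fold in macrophage-like over classical monocyte-like cells of the ZsG-positive CD45 library. Of all 11545 genes tested there, 7.29% did so. Ctsa, Lamp1 (1.28), Gla, Glb1, Atp6v0d1, Atp6v0b (1.12), Atp6v1a and Mcoln1 did not pass. Ctsk, Grn and Lipa passed without the letters, and Ctsb, which also passed, had no promoter listed. Whether the letters go with these ratios was not tested. A match of letters is a description of the sequence and shows no binding.

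Messages of the 41 genes took up a larger share of the RNA in macrophage-like cells than in any other class with at least 20 cells. They made up 2.45% of all UMIs of macrophage-like cells in the ZsG-positive CD45 library, and 2.75% and 2.62% in the ZsG-negative and ZsG-positive libraries of the T cell sort. These shares include Atp6v0c, which was abundant in the CD45 sort and had few UMIs in the T cell sort, as described below. Shares were therefore not compared between the sorts. Classical monocyte-like cells held 1.30% (ZsG-negative) and 1.92% (ZsG-positive) in the CD45 sort and 1.68% and 1.88% in the T cell sort, and non-classical monocyte-like cells 1.34% in the ZsG-negative CD45 library. The pDC-like cells held 1.56%, 1.59%, 1.56% and 1.65% over the same 4 libraries. DC1-like, DC2-like and mature DC-like cells of the ZsG-positive CD45 library had 1.14%, 1.27% and 1.16%. Lymphoid cells were lowest, with 0.274% in NK/ILC-like and 0.216% in T-like cells of the ZsG-negative CD45 library. Psap, which encodes the precursor of the saposins that help lipid-degrading enzymes, was the most abundant member in pDC-like cells of all 4 libraries, in DC1-like cells of both ZsG-positive libraries and in classical monocyte-like cells of 3 libraries. Ctsb led in macrophage-like cells of the T cell sort, Napsa in DC2-like cells and Npc2 in mature DC-like cells of its ZsG-positive library. Laptm5, which encodes a lysosomal membrane protein of blood cells, led in NK/ILC-like cells of all 4 libraries and in T-like cells of 3, while Ctss led in T-like cells of the ZsG-positive CD45 library.

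**Figure D1:**
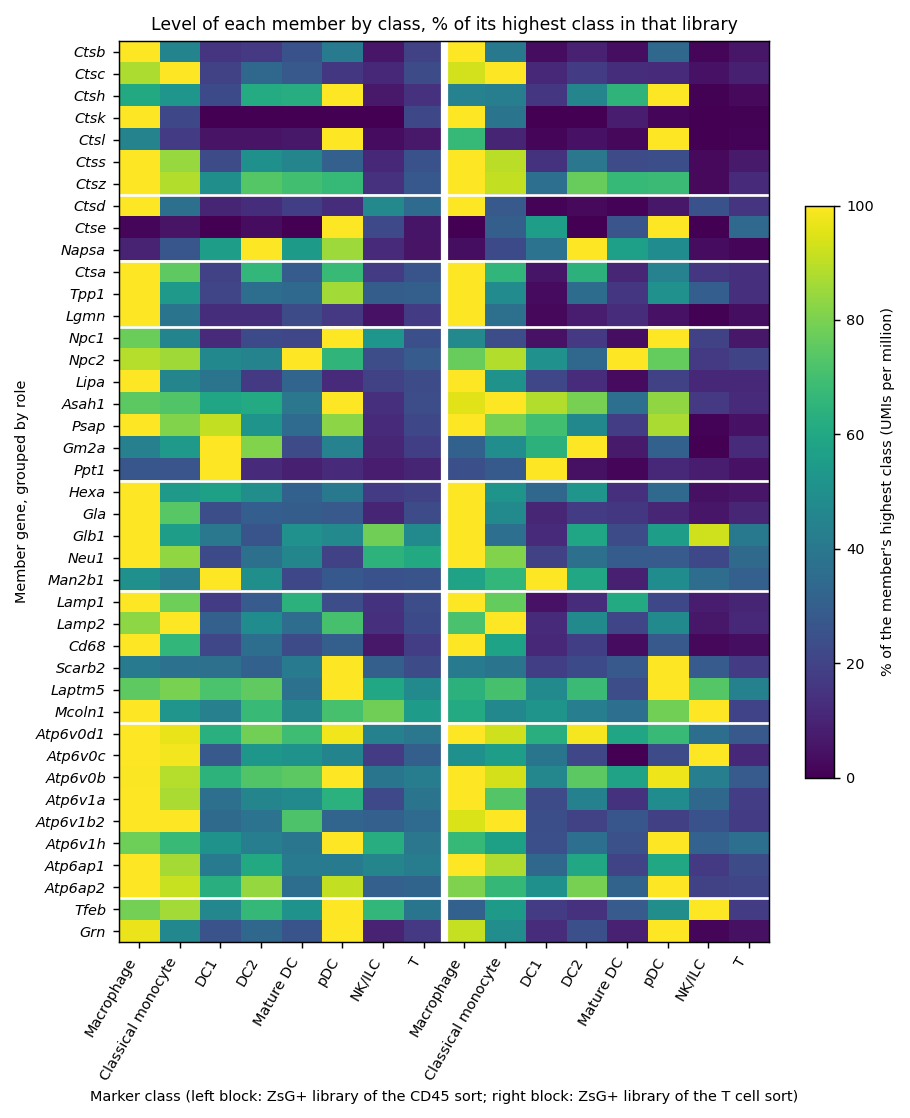
Levels of the 41 genes (rows, grouped by role, white lines between roles) in the marker classes of at least 20 cells (columns) of the ZsG-positive CD45 library (left block) and the ZsG-positive T cell library (right block), as percent of the gene's highest class in that block, so that each row reaches 100 in each block. Macrophage-like cells held the highest level for 22 genes in the left and 20 in the right block, and pDC-like cells for 11 and 9, while Atp6v0c, Tfeb and Mcoln1 in the right block rest on few UMIs.

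Levels are given from here on as CPM, the UMIs of a gene per 1000000 UMIs of its class. A 3′ library gives 1 UMI per captured molecule whatever its length, so levels of different genes were not scaled by length. In the ZsG-positive CD45 library macrophage-like cells held the highest level of 22 genes, and for 18 of them the interval of the ratio to the next class excluded 1. pDC-like cells were highest for 11 genes (4 with an interval that excluded 1), classical monocyte-like cells for Ctsc, Lamp2 and Atp6v1b2, DC1-like cells for Gm2a, Ppt1 and Man2b1, DC2-like cells for Napsa and mature DC-like cells for Npc2. In the ZsG-positive T cell library macrophage-like cells led for 20 genes (15 with an interval that excluded 1) and pDC-like cells for 9 (8). Classical monocyte-like cells led for 4 (2), DC1-like and DC2-like cells for 2 each and mature DC-like cells for Npc2. NK/ILC-like cells led there for Atp6v0c, Tfeb and Mcoln1, with no interval that excluded 1. The ZsG-negative CD45 library held only 3 macrophage-like cells. There non-classical monocyte-like cells were highest for 15 genes (5 with an interval that excluded 1) and pDC-like cells for 14 (6). Classical monocyte-like cells were highest for 7 (3), DC2-like cells for 4 (2) and NK/ILC-like cells for Ctsd. How many of all genes were highest in each class was not counted.

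Among the cysteine cathepsins, Ctsb and Ctss were the most abundant in macrophage-like cells. Ctsb, a broadly expressed lysosomal cysteine protease whose gene lies at chr14:63122462-63145923 in mm10, had 2603 CPM in macrophage-like cells of the ZsG-positive CD45 library and 4017 and 3874 in those of the ZsG-negative and ZsG-positive T cell libraries. Classical monocyte-like cells held 521, 1174, 1284 and 1567 in the order CD45 ZsG-negative, CD45 ZsG-positive, T cell ZsG-negative and T cell ZsG-positive, which is the order of every group of 4 values below. In all 3 libraries with macrophage-like cells these were above the classical monocyte-like cells of any library. Ctss, the cathepsin of antigen-presenting cells that cuts the invariant chain, was at 2754 in macrophage-like and 2325 in classical monocyte-like cells of the ZsG-positive CD45 library. Ctsc, which encodes dipeptidyl peptidase I, the activator of granule serine proteases, was the only cysteine cathepsin highest in classical monocyte-like cells there, with 1703 against 1492 in macrophage-like cells.

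Ctsl and Ctsh were highest in pDC-like cells. Ctsl (chr13:64359337-64370890), which encodes the cysteine protease cathepsin L, reached 1768, 1050, 1667 and 1935 in the pDC-like cells of the 4 libraries. Macrophage-like cells held 471, 921 and 1298 in the 3 libraries that had at least 20 of them, so that pDC-like cells stood above macrophage-like cells within each library. No DC1-like, DC2-like or mature DC-like group of the ZsG-positive libraries was above 96.0. Ctsh, an aminopeptidase among the cathepsins, was at 1190, 1022, 1254 and 1327 in pDC-like and 621, 613 and 588 in macrophage-like cells. Ctsz, a carboxypeptidase, was spread more evenly, from 595 in DC1-like to 1199 in macrophage-like cells among the myeloid and pDC-like classes of the ZsG-positive CD45 library. Ctsk, known from bone-resorbing osteoclasts, was scarce, at 6.05 in macrophage-like cells of the CD45 sort and 19.2 and 22.3 in those of the T cell sort, and at 1.32 or less in every other class of at least 20 cells of the CD45 sort except the non-classical monocyte-like cells, at 3.18 from 1 UMI.

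The 3 aspartic proteases had 3 different patterns. Ctsd (chr7:142375911-142388038), the main aspartic protease of lysosomes, was at 989, 2283 and 1637 in macrophage-like cells. It was low in pDC-like cells, at 114, 131, 81.3 and 103, and higher in NK/ILC-like cells, at 415, 467, 405 and 415. T-like cells lay between both, at 293, 347, 213 and 255, in all 4 libraries. Napsa (chr7:44572380-44586862), which encodes napsin A, had its highest level in DC2-like cells, with 776, 1119 and 1686 in the 3 libraries with at least 20 of them, and its lowest myeloid level in macrophage-like cells, with 109, 38.3 and 65.3. pDC-like cells held 592, 957, 599.5 and 822 of it. Ctse, an aspartic protease of the endosome, was scarce throughout, with 6.62, 27.3, 4.51 and 6.49 CPM in pDC-like cells and 0.416 in macrophage-like cells of the ZsG-positive CD45 library.

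Of the other proteases, Lgmn (chr12:102394084-102439813), which encodes legumain, an enzyme that cuts after asparagine and processes cathepsins, had its highest level in macrophage-like cells in every library that held at least 20 of them. Its level there was 1243, 1586 and 1504, and in classical monocyte-like cells 73.9, 479.6, 495 and 554. NK/ILC-like and T-like cells of the ZsG-negative CD45 library held 1.57 and 1.95. Per cell this was 18.3 UMIs in macrophage-like cells of the ZsG-positive CD45 library and 0.0261 in T-like cells of the ZsG-negative library, at median depths of 12886 and 7107 UMIs. Thinned to 2000 UMIs per cell, 83.4% of the macrophage-like and 0.537% of those T-like cells had a Lgmn UMI (unthinned 98.1% and 2.21%). Ctsa, which encodes the protective protein of lysosomal glycosidases, reached 339 and Tpp1, a tripeptidyl peptidase, 88.8 in macrophage-like cells of the ZsG-positive CD45 library, where both were highest.

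Genes of lipid breakdown and transport were spread over several classes. Psap was at 3060 in macrophage-like, 2775 in DC1-like and 2532 in pDC-like cells of the ZsG-positive CD45 library, an order kept in the T cell sort by macrophage-like (2842) and pDC-like cells (2487) but with DC1-like cells at 1977. Npc2, the soluble cholesterol carrier, was highest in mature DC-like cells in both ZsG-positive libraries, at 1757 and 1766. Npc1, the membrane partner of Npc2, was highest in pDC-like cells, at 147, 76.5, 177 and 180.2, where the value of the ZsG-positive CD45 library rests on 25 cells. Ppt1, a palmitoyl-protein thioesterase, stood out in DC1-like cells with 546 and 619.6, while no other class exceeded 174. Gm2a, the activator protein of ganglioside breakdown, was at 786 in DC1-like and 638 in DC2-like cells of the ZsG-positive CD45 library, against 556 and 867 in the T cell sort, so which dendritic class led differed between the sorts. Lipa, the lysosomal acid lipase, was highest in macrophage-like cells at 136, 314 and 187. Asah1, an acid ceramidase, lay between 32.2 in NK/ILC-like and 235 in pDC-like cells of the ZsG-positive CD45 library.

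Among the glycosidases, Hexa, a subunit of beta-hexosaminidase, had the highest level in macrophage-like cells with 298 and 322 in the ZsG-positive CD45 and T cell libraries. Gla (alpha-galactosidase), Glb1 and Neu1 (a sialidase) were also highest in macrophage-like cells of both, at 98.4, 23.2 and 56.2 in the CD45 sort. Man2b1, the lysosomal alpha-mannosidase, was the exception, with its highest level in DC1-like cells at 319 and 197. Of the membrane proteins, Cd68, a macrophage glycoprotein of late endosomes, was at 829, 1053 and 975 in macrophage-like cells, and Lamp1 at 667, 952 and 785. Scarb2, the carrier of beta-glucocerebrosidase, and Laptm5 were highest in pDC-like cells of both ZsG-positive libraries, Laptm5 with 1017 and 1090. Mcoln1, a calcium channel of the lysosomal membrane, was at or below 14.1 in every class of at least 20 cells of the ZsG-positive libraries.

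The ratios of macrophage-like over classical monocyte-like cells were near 1 for the 8 V-ATPase genes in the ZsG-positive CD45 library, from 0.997 (Atp6v1b2) to 1.16 (Atp6v1h). Summed, these genes held 2854 in macrophage-like, 2724 in classical monocyte-like and 1711 in pDC-like cells of the ZsG-positive CD45 library, while the 7 cysteine cathepsins held 9146, 6990 and 5074. Atp6v0c, the proteolipid subunit, dominated that sum in the CD45 sort at 1686 and 1658, but was at 7.08 and 7.87 in the same classes of the T cell sort. The 2 sorts were counted against different gene lists, and Atp6v0c was therefore not compared between them. Without it, Atp6v0b was the most abundant V-ATPase member, at 434 and 446 in macrophage-like cells. Of the regulators, Grn, which encodes progranulin, was at similar levels in macrophage-like cells (961, 1044 and 996) and in pDC-like cells (1029, 989.6, 1115 and 1093). Tfeb, the transcription factor of lysosome biogenesis, was at or below 50.9 in every class of at least 20 cells.

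**Figure D2:**
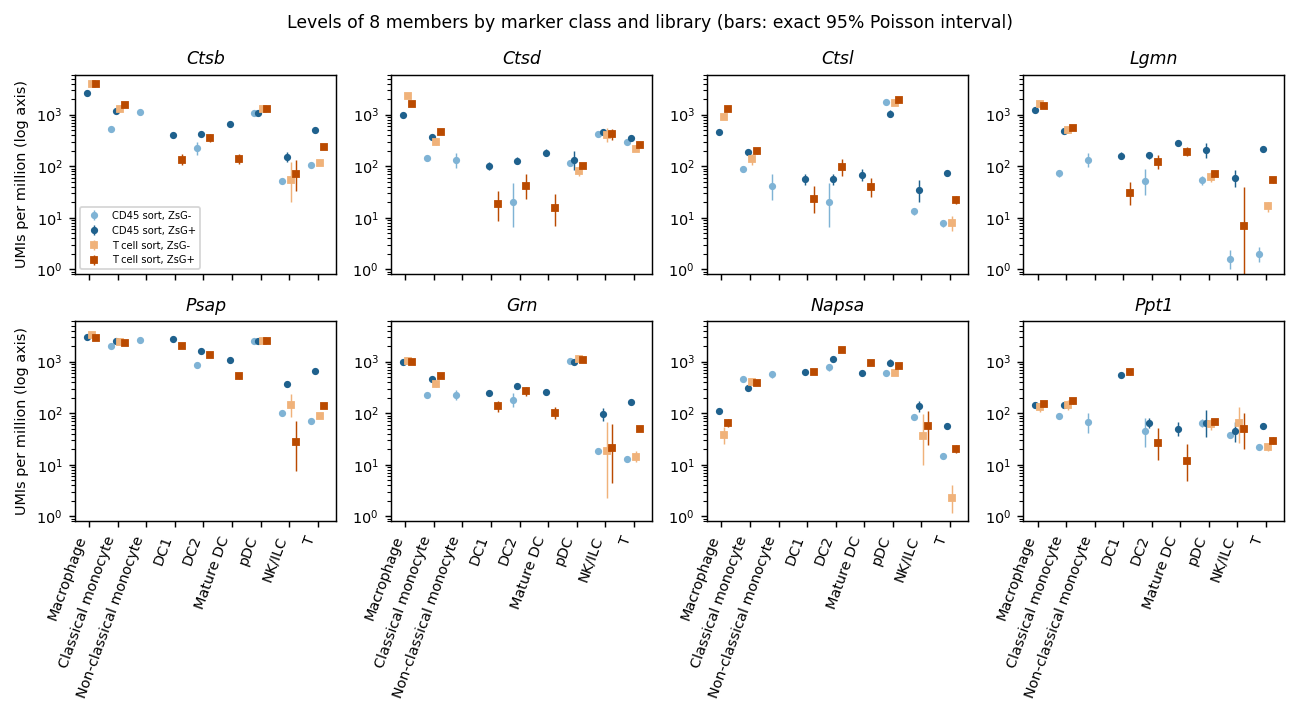
Levels of 8 genes in CPM, the UMIs per 1000000 UMIs of a class (vertical log axis) by marker class (horizontal axis) in the 4 libraries, with exact 95% Poisson intervals, for classes of at least 20 cells and genes with a UMI there. Ctsb, Ctsd and Lgmn were highest in macrophage-like cells in the 3 libraries that held at least 20 of them, Ctsl in pDC-like cells, Napsa lowest among myeloid classes in macrophage-like cells and Ppt1 highest in DC1-like cells, where it reached 546 and 619.6.

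Macrophage-like and classical monocyte-like cells were compared within the ZsG-positive CD45 library (1474 and 1475 cells). By clusters, 530 (35.9%) of the 1475 classical monocyte-like cells lay in the classical monocyte-like cluster. Clusters named macrophage-like held 285, 238, 188, 52 and 20 of them. A gene was counted as higher or lower when its ratio passed 2-fold, its interval excluded 1 and it had at least 20 UMIs over both classes. Of 41 genes 7 were higher, where 7.29% of all 11545 genes tested were (the background), and 2 were lower (background 2.62%). Those that rose were 5 proteases, Lipa and Grn. Ctsd went from 364 in classical monocyte-like to 989 in macrophage-like cells, a ratio of 2.72 (2.63 to 2.80). Lgmn rose 2.59-fold (2.52 to 2.66), Ctsl 2.51-fold (2.40 to 2.62) and Ctsb 2.22-fold (2.18 to 2.26). Lipa and Grn rose 2.21-fold and 2.08-fold, and Ctsk 4.58-fold (2.79 to 7.97) from a level of 1.32. The genes that fell were Napsa, 2.77-fold (2.63 to 2.92) from 301 to 109, and the scarce Ctse, 3.35-fold (1.45 to 8.42). The median log2 ratio was 0.21 over the 41 genes and 0.13 over all genes tested, and 33 of 41 ratios were above 1. The next lowest, short of the fold, were Gm2a, Lamp2 and Ctsc with ratios of 0.809, 0.831 and 0.876, and all 8 V-ATPase genes had ratios between 0.997 and 1.16, with none past the fold. With clusters in place of marker counts 12 genes were higher, and 11 when cells that led by only 1 marker were left out. For neither alternative is the share of all genes reported here.

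The same contrast in the ZsG-positive T cell library (121 and 137 cells), chosen after the classes of that sort had been seen, gave 8 of 40 genes higher (background 7.8%) and Napsa lower (background 5.25%). Ctsl was at 1298 in macrophage-like and 197 in classical monocyte-like cells, a ratio of 6.60 (5.85 to 7.46). Ctsd, Lgmn, Ctsk and Ctsb rose 3.58-fold, 2.71-fold, 2.61-fold and 2.47-fold, as did Glb1 (2.72-fold), Gla (2.12-fold) and Tpp1 (2.08-fold). Napsa fell 5.81-fold (4.79 to 7.08). Ctsb, Ctsd, Ctsk, Ctsl and Lgmn were higher in both sorts, 5 of the 7 and 5 of the 8, and Napsa was lower in both. The overlap of the sorts over all genes tested was not counted. Tfeb (0.573), Gm2a (0.636), Lamp2 (0.713) and Npc2 (0.867) had the lowest ratios after Napsa and did not pass the fold.

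**Figure D3:**
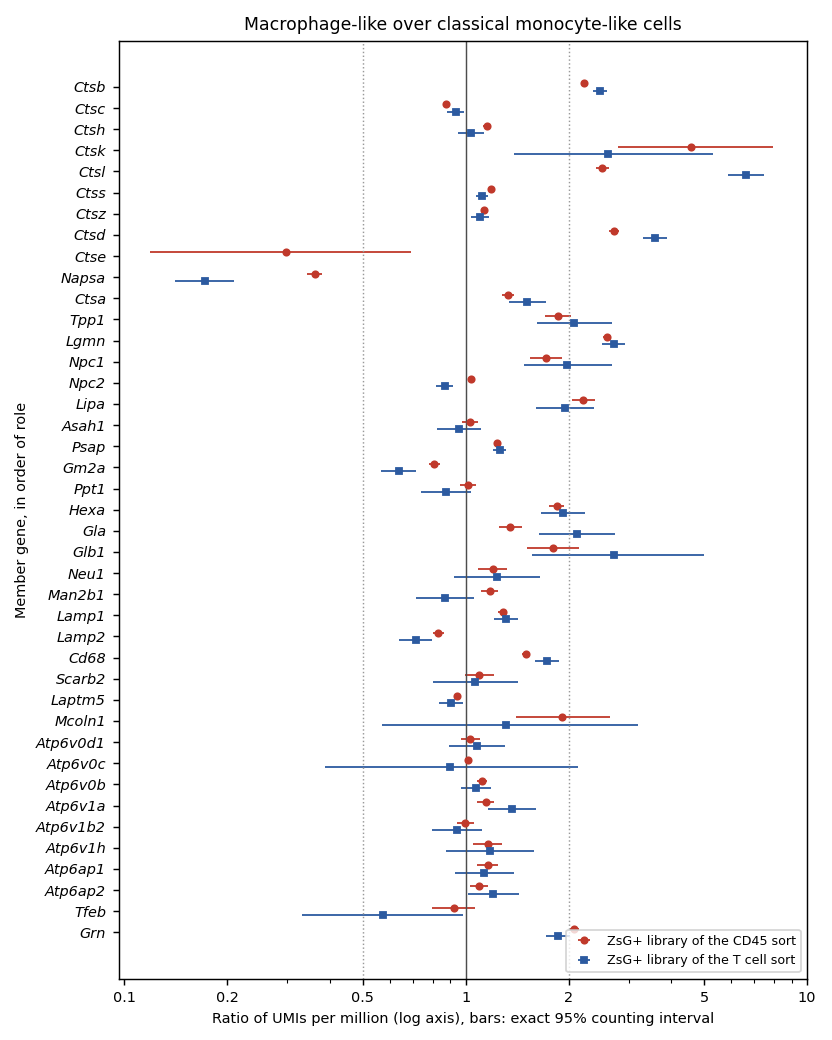
Ratio of macrophage-like over classical monocyte-like cells for each gene (vertical axis, in order of role) on a log axis, in the ZsG-positive CD45 library (circles) and the ZsG-positive T cell library (squares), with exact 95% counting intervals and dotted lines at 2-fold. Ctsd, Lgmn, Ctsl and Ctsb lie right of the 2-fold line in both, Napsa left of it, and the V-ATPase genes near 1.

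More of the genes were higher in macrophage-like cells over each dendritic class than over classical monocyte-like cells. Over DC1-like cells (78 cells) 24 of 40 genes were higher (background 12.2%) and 3 lower (background 7.84%). Ctsd was at 989 against 103, a ratio of 9.65 (8.08 to 11.6), followed by Ctsl (8.50), Lgmn (7.74) and Ctsb (6.57), and Ctsk, with no UMI in DC1-like cells, was at least 2.40-fold higher. The 3 that were lower were Napsa, 5.76-fold (5.29 to 6.25), Ppt1, 3.74-fold (3.43 to 4.07), and Gm2a, 2.31-fold (2.15 to 2.47). Man2b1 (ratio 0.501) and Laptm5 (1.05) had the next lowest ratios. Over DC2-like cells (84 cells) 19 of 40 were higher (background 8.44%), led by Ctsk (at least 2.33-fold), Ctsl (8.38-fold), Ctsd (7.68-fold), Lgmn (7.65-fold) and Ctsb (6.05-fold). Napsa alone was lower (background 5.66%), at 109 against 1119, 10.3-fold (9.61 to 11), and Gm2a (0.534), Ctsh (0.986), Laptm5 (0.995) and Man2b1 (1.01) did not pass the fold. Over mature DC-like cells (70 cells) 24 of 40 were higher (background 13.2%), among them Ctsl (6.84-fold), Ctsd (5.40-fold), Lgmn (4.34-fold) and Cd68 (4.28-fold), and Napsa was lower 5.63-fold (5.11 to 6.19) (background 8.19%). Npc2 (0.887), Ctsh (0.974), Scarb2 (0.978) and Atp6v0b (1.33) had the next lowest ratios there. The macrophage-marker level in these DC classes was 717, 634 and 1820 CPM in the ZsG-positive CD45 library, against 12.8, 120.0 and 10.3 in the ZsG-positive T cell library and 11881 in macrophage-like cells. Ctsd was at 103, 129 and 183 in the CD45 sort and 18.2, 42.0 and 15.5 in the T cell sort. Ppt1 in DC1-like cells was at 546 and 619.6. By role, the 7 cysteine cathepsins gave 7 higher genes over DC1-like, 4 over DC2-like and 5 over mature DC-like cells, and the 8 V-ATPase genes gave 4, 2 and 3. The part of macrophage RNA in these levels was not tested.

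DC2-like and DC1-like cells differed in few of the genes. Of 37 genes 3 were higher in DC2-like cells (background 6.56%), Ctsa 3.33-fold (2.58 to 4.34), Ctsh 2.76-fold (2.40 to 3.19) and Ctss 2.18-fold (2.00 to 2.38). Another 3 were lower (background 4.95%), led by Ppt1 with 64.9 against 546, a difference of 8.42-fold (6.62 to 10.8). Lipa and Man2b1 were 2.23-fold and 2.01-fold lower. Psap (0.569) and Gm2a (0.812) did not pass the fold, and nor did Npc1 (1.87) and Atp6v0c (1.89) in the other direction. In the T cell sort, where 35 DC1-like and 28 DC2-like cells were ZsG-positive, the levels were 619.6 and 27 for Ppt1 and 21.9 and 255 for Ctsa, in the same directions. The number of higher genes went from 3 to 6 when every cell had equal weight and to 7 without cells that led by only 1 marker. For neither alternative is the share of all genes reported here.

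Within macrophage-like cells of the ZsG-positive CD45 library, 583 cells were called hypoxic and 223 cycling by marker genes of those states, and 668 neither. Ctsk alone passed 2-fold in hypoxic over the other cells, at 10.0 against 3.57 (2.81, 1.82 to 4.45, 1 of 40, background 2.61%), and none was lower (background 0.466%). Ctsl had the next ratio, 1.66 (1.59 to 1.73), with levels of 626 and 377, and Ppt1 the lowest, 0.728 (0.671 to 0.789). Atp6v1a (1.43), Gla (1.33) and Napsa (1.28) followed Ctsl, and Man2b1 (0.767), Ctsc (0.855), Scarb2 (0.860) and Asah1 (0.866) were next lowest. In cycling over the other cells none of 40 genes was higher or lower by 2-fold (backgrounds 7.01% and 0.66%). The lowest ratios were those of Ctsh (0.697), Ctss (0.737), Atp6v1b2 (0.750), Asah1 (0.759) and Cd68 (0.760) and the highest those of Glb1 (1.31) and Napsa (1.21), with a median log2 ratio of -0.19 beside 0.08 for all genes tested.

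Classical monocyte-like, pDC-like and NK/ILC-like cells were compared with T-like cells in the ZsG-negative CD45 library, where the 8 macrophage markers summed to 19.0 CPM in T-like cells. Of 40 genes 34 were higher in classical monocyte-like cells (background 17.9%). Ctsh was at 458 against 5.80, a ratio of 79.0 (65.1 to 96.5), and Lgmn, Cd68, Napsa and Psap rose 37.9-fold, 33.4-fold, 31.1-fold and 27.7-fold. Ctsd was the single gene lower in classical monocyte-like cells (background 22.7%), at 142 against 293, 2.05-fold (1.83 to 2.31). Glb1 (1.10), Mcoln1 (1.16), Atp6v1h (1.32) and Neu1 (1.67) did not pass the fold. Non-classical over classical monocyte-like cells (42 and 241 cells) had Tfeb (2.18) and Ctsb (2.14) higher of 38 (background 5.6%) and Atp6v0c, Ctsl, Atp6ap2 and Atp6v1a lower (background 4.73%), by 2.24, 2.13, 2.04 and 2.04-fold. Lgmn (1.81), Lipa (1.72), Tpp1 (1.70) and, on the other side, Ctsc (0.517) did not pass it. Those higher calls dropped to 0 with TMM factors and with clusters, for which the share of all genes is not reported here. By clusters, 135 (56%) of the 241 classical monocyte-like cells lay in the cluster named non-classical monocyte-like, and 55 in the classical one. The non-classical cluster also held 40 of the 42 non-classical monocyte-like cells.

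In pDC-like over T-like cells of the ZsG-negative CD45 library 33 of 40 genes were higher (background 18.8%) and Ctsd was lower (background 17.1%). Ctsl was at 1768 against 7.90, a ratio of 224 (191 to 264), and Ctsh at 1190 against 5.80, 205 (170.3 to 249.5). Grn, Napsa and Psap rose 78.8-fold, 39.6-fold and 35.7-fold. Ctsd was 2.58-fold (2.25 to 2.96) lower in pDC-like cells, and Neu1 (0.712), Atp6v1b2 (1.30), Glb1 (1.59) and Gla (1.75) did not pass the fold. The T cell sort gave the same contrast in 2 further libraries, added after its classes were seen. There 31 of 39 genes were higher and Ctsd was 2.63-fold lower in the ZsG-negative library (backgrounds 17.8% and 15.6%), and 30 of 40 were higher and Ctsd was 2.47-fold lower in the ZsG-positive library (backgrounds 18.7% and 18.9%). Ctsl, Ctsh, Grn, Napsa and Psap were among the 6 highest ratios in both, with ratios of 214 and 87.4 for Ctsl and 425 and 37.5 for Ctsh. Ctsd was thus lower in pDC-like than in T-like cells in each of the 3 libraries.

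NK/ILC-like and T-like cells differed past the fold in 4 of the genes. In the ZsG-negative CD45 library (2401 and 1494 cells) Napsa, at 85.1 against 14.9 (5.69, 5.01 to 6.48), and Npc1, at 35.4 against 11.3 (3.12, 2.66 to 3.66), were higher in NK/ILC-like cells, 2 of 40 (background 9.69%). Gm2a was 3.99-fold (3.37 to 4.74) and Ctsb 2.02-fold (1.86 to 2.20) lower (background 10.8%). Tfeb (1.94), Hexa (1.82) and Ctsl (1.68) had the next highest ratios and Lgmn (0.807), Ctsz (0.827) and Ctss (0.864) the next lowest. Ctsd did not pass the fold, with 415 and 293.

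The gate contrast asked how cells of a class differed between the ZsG-positive and the ZsG-negative library, with 1.5-fold as the limit. In classical monocyte-like cells of the CD45 sort (1475 and 241 cells) 13 of 40 genes were higher in the ZsG-positive library, with a background of 11.9%, and 3 were lower, with a background of 16.8%. Lgmn was at 479.6 in ZsG-positive and 73.9 in ZsG-negative cells, a ratio of 6.49 (5.56 to 7.62). Gla rose 3.26-fold (2.45 to 4.42), Ctsc 2.69-fold (2.55 to 2.84), Ctsd 2.56-fold (2.28 to 2.87) and Ctsb 2.26-fold (2.12 to 2.40). By role these were 5 of 7 cysteine cathepsins (Ctsb, Ctsc, Ctsl, Ctss, Ctsz), with Ctsh (1.18) short of the limit and Ctsk under the minimum, and beside them Ctsd, Lgmn, Tpp1, Cd68, Gla, Grn, Ppt1 and Atp6v0c. Man2b1, Scarb2 and Napsa fell 1.63-fold, 1.58-fold and 1.54-fold, Napsa from 466 to 301. Ctse (0.389), whose interval included 1, and Atp6v1a (0.867) were also among the 5 lowest ratios. The macrophage-marker level was 2734 in the ZsG-positive and 1416 in the ZsG-negative cells, the median number of macrophage markers per cell 3 and 1, and the melanoma-marker level 32.2 and 7.62, and their part in these ratios was not tested. Different clusters held most of the cells of the 2 libraries. Of the 241 ZsG-negative cells 135 (56%) lay in a cluster named non-classical monocyte-like, 55 in the classical monocyte-like cluster and 29 in an unnamed one. Of the 1475 ZsG-positive cells 530 (35.9%) lay in the classical monocyte-like cluster and 285, 238, 188, 52 and 20 in macrophage-like clusters. Another 121 lay in the unnamed cluster and 25 in the non-classical one. With cells classed by clusters 4 genes were higher in place of 13, and the share of all genes higher by clusters is not reported here.

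In the T cell sort the same contrast (137 and 48 cells) gave Ctsd higher, 1.52-fold (1.28 to 1.82), as the single call of 37 genes (background 4.01%), and none lower (background 5.17%). Neu1 (1.53), whose interval did not exclude 1, Grn (1.46), Ctsl (1.45) and Ctss (1.39) had the next highest ratios. Lgmn had levels of 554 and 495, a ratio of 1.12 (0.972 to 1.29), beside 6.49 in the CD45 sort. In this sort the macrophage-marker level of classical monocyte-like cells was 2951 and 2128. In macrophage-like cells of the T cell sort (121 and 33 cells) Napsa was higher 1.70-fold (1.14 to 2.63) and Lipa lower 1.68-fold (1.43 to 1.98), 1 gene each of 40 (backgrounds 4.53% and 2.16%), and Ctsd had levels of 1637 and 2283, a ratio of 0.717, short of the limit. The CD45 sort allowed no such contrast, since its ZsG-negative library held 3 macrophage-like cells.

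**Figure D4:**
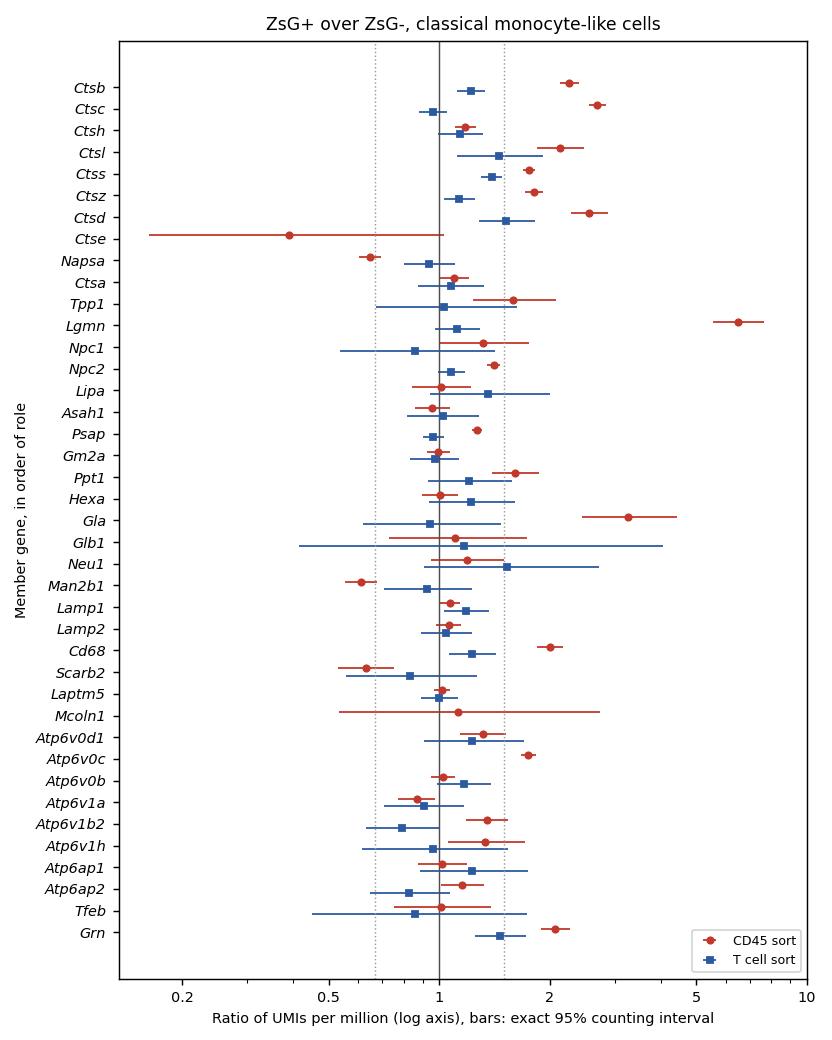
Ratio of ZsG-positive over ZsG-negative classical monocyte-like cells for each gene (vertical axis, in order of role) on a log axis, in the CD45 sort (circles) and the T cell sort (squares), with exact 95% counting intervals and dotted lines at 1.5-fold. Lgmn, at 6.49, is farthest from 1 in the CD45 sort, and in the T cell sort only Ctsd, at 1.52, passes the limit with an interval that excludes 1.

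In DC2-like cells of the CD45 sort (84 and 26 cells) 9 of 37 genes were higher in the ZsG-positive library (background 9.41%) and none lower (background 6.31%). Ctsd was at 129 and 20.3, a ratio of 6.34 (2.66 to 19.8), and Lgmn, Ctsc and Ctsl rose 3.08-fold, 3.00-fold and 2.77-fold, followed by Ctsb, Grn, Psap, Ctsa and Cd68. Gla (2.41) had an interval that included 1. Npc1, Atp6v1h, Gm2a, Asah1 and Atp6ap2 had the lowest ratios, from 0.608 to 0.737. The macrophage-marker level was 634 and 138 in these cells. Of the 84 ZsG-positive cells 55 lay in an unnamed cluster, 14 in the pDC-like cluster and 13 and 2 in clusters named macrophage-like. Of the 26 ZsG-negative cells 19 lay in the unnamed cluster and 7 in the pDC-like one. The part of these differences in the ratios was not tested. In pDC-like cells of the CD45 sort (25 and 217 cells) Lgmn (3.89, 2.61 to 5.68), Ctsc (1.68) and Napsa (1.62) were higher, 3 of 38 (background 3.83%), and Npc1 and Ctsl were lower, 1.92-fold and 1.68-fold (background 2.97%). Gla (2.33), Atp6v0d1 (1.57), Lipa (0.511), Atp6ap1 (0.632) and Glb1 (0.651) had intervals that included 1. Their macrophage-marker level was 1203 and 53.0. In pDC-like cells of the T cell sort (619 and 123 cells), with macrophage-marker levels of 63.9 and 71.3, none of 40 genes was higher or lower (backgrounds 2.08% and 2.76%). There Lgmn was at 71.0 and 63.2, Ctsl at 1935 and 1667, and Napsa at 822 and 599.5 (ratio 1.37).

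Of the gate contrasts, that in T-like cells of the CD45 sort had the largest number of genes higher in the ZsG-positive library, 29 of 40 (background 11.3%), and none lower (background 4.09%). Lgmn was at 216 in ZsG-positive (255 cells) and 1.95 in ZsG-negative cells (1494 cells), a ratio of 111 (80.2 to 157). Ctsh rose 25.3-fold (20.7 to 31.2), Cd68 18.4-fold (15.4 to 22.0), Grn 12.7-fold (11 to 14.8) and Psap 9.30-fold (8.71 to 9.93). Ctsd, at 347 and 293, had a ratio of 1.19 (1.12 to 1.26), and it, Scarb2, Glb1, Atp6v1h and Ctse had the lowest 5 ratios, from 1.20 to 0.859. The larger clusters named T-like held 19.2%, 22%, 20.4% and 30.2% of the ZsG-positive and 43.2%, 31.2%, 17.5% and 5.49% of the ZsG-negative cells. The share that led the next class by only 1 marker was 20.8% and 7.63%, and the melanoma-marker level 13.8 and 1.95. The part of these differences in the ratios was not tested. In NK/ILC-like cells (101 and 2401 cells) 17 of 40 were higher (background 4.48%) and none lower (background 1.96%), with Lgmn at 58.4 and 1.57 (37.1, 20.7 to 67.2), Ctsh 13.7-fold, Gm2a 7.54-fold, Grn 5.05-fold and Ctss 4.87-fold. Ctsd (1.13), Tpp1 (1.11), Laptm5 (1.02), Scarb2 (0.976) and Atp6v1a (0.916) were the lowest there.

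Of the 5 highest of these ratios, those of Lgmn, Cd68 and Psap belong to genes that were highest in macrophage-like cells of that library, and those of Ctsh and Grn to genes that were highest in its pDC-like cells (1022 and 989.6, beside 621 and 961 in macrophage-like cells). Macrophage RNA was measured beside them. In the CD45 sort 88.2% of ZsG-positive and 7.03% of ZsG-negative T-like cells had a UMI of a macrophage marker, at median depths of 12465 and 7107 UMIs. The summed level of C1qa, C1qb and C1qc, complement genes of macrophages, was 1113 and 7.90, against 8592 in macrophage-like cells of the ZsG-positive library. A mixture of ZsG-negative T-like cells with 12.9% of macrophage-like RNA has that C1q level. Lgmn was at 216 where the mixture gave 162, and Ctsb at 506 where it gave 428. Of the 41 genes 16 had the mixture level within their counting interval, 24 were above and Ctsd (0.908 times the mixture) was below. The observed level was at most 2.12 times that of the mixture (Napsa), followed by Gm2a (1.76), Ctsh (1.73) and Ctss (1.64). The mixture holds macrophage-like RNA only. In the ZsG-positive CD45 library Napsa was highest in DC2-like (1119), Gm2a in DC1-like (786) and Ctsh in pDC-like cells, and Ctss in macrophage-like cells. The part of RNA from classes other than macrophage-like cells was not tested. The macrophage markers themselves lay between 0.427 (Pf4) and 1.10 (C1qb) times the mixture. C1qa, C1qb and C1qc are among these markers, and their summed level equals that of the mixture by construction. In NK/ILC-like cells the share was 6.11%, with 32 genes within, 8 above and 1 below. The interval covers counting error of the observed level alone and not that of the mixture. The share of all genes above or below the mixture is not reported here. These counts therefore do not show whether the 41 genes differ from other genes in this.

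When T-like cells with a macrophage-marker UMI were left out, 30 ZsG-positive and 1389 ZsG-negative cells remained in the CD45 sort and 14 genes in place of 29 were higher. For all genes the share higher among the remaining cells is not reported here. Lgmn was then at 36.0 and 1.17, where it was 228 in the 225 ZsG-positive cells with such a UMI. Grn was at 48.0 and 12.2 and Ctsh at 80.1 and 4.77. Thinned to 2000 UMIs per cell, 23.5% of ZsG-positive and 0.537% of ZsG-negative T-like cells had a Lgmn UMI (unthinned 46.7% and 2.21%), beside 9% and 0.209% of NK/ILC-like cells. Whether this RNA lay inside T-like cells, in doublets or in free RNA was not tested.

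In the T cell sort the 2 gates were taken from T-like cells with at least 0.055% of UMIs from the CD3 genes (729 ZsG-positive and 647 ZsG-negative cells). Of 40 genes 12 were higher in the ZsG-positive library (background 9.39%) and Ctse was lower (background 5.63%), 2.76-fold from 6.11. Ctsh was at 35.4 and 2.95, a ratio of 12.0 (7.02 to 22.3), and Napsa at 20.5 and 2.32, 8.86 (4.80 to 18.2). Cd68, Grn and Lgmn rose 4.15-fold, 3.45-fold and 3.20-fold, and Ctsl, Ctsz, Gm2a, Ctsc, Ctsb, Asah1 and Psap made up the rest. Laptm5 (0.864), Tpp1 (0.863), Scarb2 (0.786) and Atp6v0c (0.701) had the lowest ratios after Ctse. Each of these 12 was also among the 29 of 40 genes higher in the T-like cells of the CD45 sort. Lgmn was at 53.3 and 16.6 here and at 216 and 1.95 there. The overlap of the sorts over all genes tested was not counted.

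Macrophage markers differed in the same direction in this sort. A macrophage-marker UMI was found in 23.6% of ZsG-positive and 9.58% of ZsG-negative T-like cells, and the C1q level was 216 and 71.2. A mixture of ZsG-negative T-like cells with 1.69% of macrophage-like RNA has the C1q level of the ZsG-positive cells. The source of the C1q rise was not tested. Against that mixture 18 genes were above, 17 within and 6 below, and the share of all genes is not reported here either. Ctsh was 2.76 times and Napsa 6.07 times the mixture level. Without cells that had a macrophage-marker UMI 6 genes in place of 12 were higher, and Lgmn was at 4.72 and 4.42 and Ctsh at 8.62 and 0.983. Without the 5% of cells with the highest doublet scores 4 genes were higher, and Lgmn turned to a log2 ratio of -0.75. These scores, here and below, came from Scrublet, whose calls were taken as not having worked. Cells with high scores are therefore not known to be doublets. For all genes the share higher without either group of cells is not reported here. The pDC-like cells of this library, in which Ctsh (1327) and Napsa (822) were high, were 619 in the ZsG-positive and 123 in the ZsG-negative library, and the pDC-marker level of T-like cells was 464 and 453. The mean number of pDC markers with a UMI per T-like cell was 1.04 and 0.859, at median depths of 6245 and 5795 UMIs. The part of pDC RNA was not tested.

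**Figure D5:**
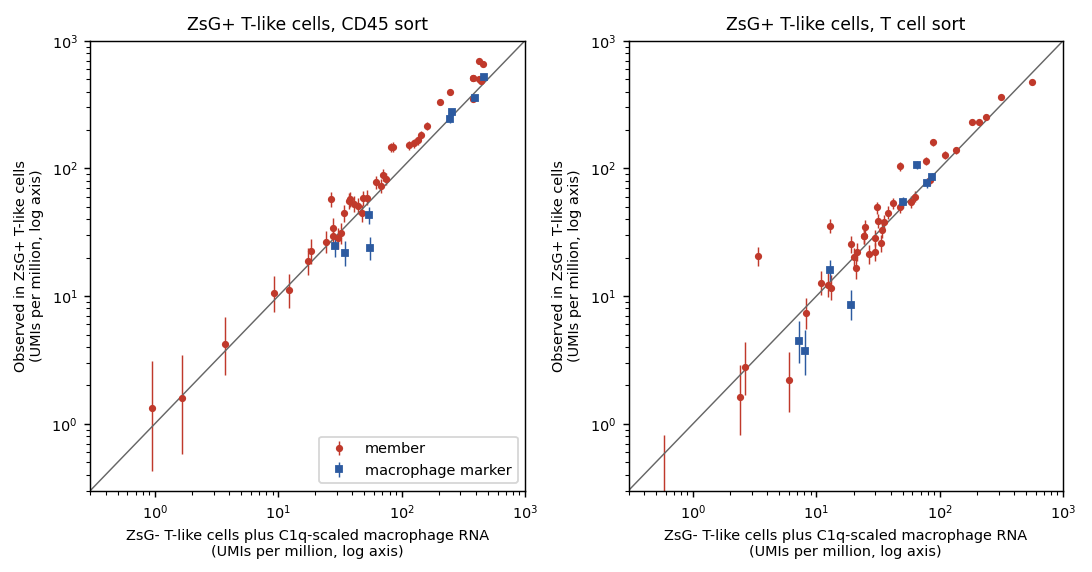
Observed level in ZsG-positive T-like cells (vertical log axis, CPM, exact 95% Poisson intervals) against the level of ZsG-negative T-like cells mixed with macrophage-like RNA to the observed C1q level (horizontal log axis), for the 41 genes (circles) and the 8 macrophage markers (squares) in the CD45 sort (left) and the T cell sort (right), with the line of equality. In the CD45 sort 24 genes lie above the line by more than their interval, 16 within and 1 below, and in the T cell sort 18 lie above, 17 within and 6 below, with Napsa at 6.07 times the mixture in the T cell sort. Genes outside the 41 and the markers are not shown.

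By subset, CD8 T-like cells of the T cell sort (447 and 423 cells) had 12 of 38 genes higher (background 8.51%) and Ctse lower (background 6.01%). Ctsh led with 34.0 and 2.10, a ratio of 16.2 (7.66 to 40.9), followed by Napsa (5.55), Lgmn (4.21), Cd68 (3.65) and Grn (3.10). Asah1, Ctsb, Ctsc, Ctsl, Ctsz, Gla and Gm2a were the others. The count of 12 was 3 without the highest doublet scores or without cells with a macrophage-marker UMI. Lgmn turned to a log2 ratio of -0.38 without the highest doublet scores, and Cd68 to -0.037 with the macrophage profile taken off. The C1q level of CD8 T-like cells was 237 in the ZsG-positive and 33.0 in the ZsG-negative library. Treg-like cells (104 and 30 cells) had 9 of 32 higher (background 4.26%) and none lower (background 3.6%). In them Ctsl, Ctsh and Cd68 had no UMI in the ZsG-negative library and were at least 3.00-fold, 2.72-fold and 2.72-fold higher in the ZsG-positive library, and Grn was 6.18-fold (2.03 to 30.7) higher. The C1q level of these cells was 192 in the ZsG-positive and 7.11 in the ZsG-negative library, and 20.2% and 6.67% of them had a macrophage-marker UMI. The count of 9 was 2 without such cells, 3 without the highest doublet scores and 3 with thinned cells. CD4 conventional T-like cells (41 and 60 cells) allowed 20 genes, of which Atp6v0b (1.73) and Psap (1.61) were higher (background 2.81%) and Lamp2 was 4.60-fold (1.43 to 23.6) lower (background 3.78%), from few UMIs. Psap turned to a log2 ratio of -0.79 without the highest doublet scores and -0.070 without cells with a macrophage-marker UMI, and the count of 2 was 0 without those cells, at 100 UMIs or at 2-fold. For none of these alternatives in the subsets is the share of all genes reported here.

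A wider list of 58 other lysosome genes, 57 of them in the gene list of the CD45 sort, was counted in the same contrasts. In macrophage-like over classical monocyte-like cells of the ZsG-positive CD45 library 8 of 56 were higher and none lower (backgrounds 7.29% and 2.62%), led by Cd63 (3.51), a tetraspanin of late endosomes, Igf2r (2.87), a receptor that carries enzymes to lysosomes, and Acp5 (2.61), an acid phosphatase. Over DC1-like cells 26 of 56 were higher (background 12.2%), with Cd63 at 19.0-fold and Acp2 at 7.92-fold, and 5 were lower (background 7.84%), among them Cst3, the secreted cathepsin inhibitor cystatin C, at 2304 against 28166 (12.2-fold lower), and Arsb (14.3-fold). In pDC-like over T-like cells of the ZsG-negative CD45 library 26 of 56 were higher (background 18.8%), among them Sort1 (196) and Mitf (15.3), and 5 lower (background 17.1%), with Igf2r (22.2-fold), Cst7 (12.2-fold) and Acp5 (6.83-fold) at the bottom. Cst7 encodes cystatin F, an inhibitor of cathepsins in lymphoid cells. Between the gates, classical monocyte-like cells of the CD45 sort had 16 of 56 higher and 8 lower (backgrounds 11.9% and 16.8%), with Cd63 at 109 and 3.58 (30.5, 15.5 to 70.9), Cstb (3.67) and Acp2 (3.25) at the top and Ctsw (10.6-fold), Sort1 (5.81-fold) and Arsb (4.25-fold) lower. Cd63 was also higher in classical monocyte-like cells of the T cell sort, at 181 and 32.4 (5.59, 3.43 to 9.73). T-like cells of the CD45 sort had 26 of 55 higher and 1 lower (backgrounds 11.3% and 4.09%), with Plbd1 (30.4), Cd63 (30.0) and Slc11a1 (21.9) at the top and Ctsw, a cathepsin of cytotoxic lymphocytes, 1.85-fold lower.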

How the data were processed

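The authors deposited UMI counts per gene and cell barcode, 1 matrix for each sort with both libraries in it. By their methods Cell Ranger 6.1.2 aligned the reads to mm10 and aggr joined the libraries. The header of the CD45 matrix names version 7.0.0, and whether aggr evened out depth was not stated in the methods or headers. UMIs were not corrected for free RNA. From these counts, kept cells had 1000 to 6000 genes and under 10% mitochondrial UMIs (CD45 sort) or at least 50 genes and under 15% (T cell sort), with at least 0.055% of UMIs from CD3 genes for T-like cells. A class needed at least 3 of its 8 markers and more than any other class. UMIs were summed over a class and divided by its total.

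Ratios carry exact conditional intervals and levels exact Poisson intervals, made with Python 3.11.15, numpy 2.4.6, scipy 1.17.1 and pandas 2.3.3. A call needed 2-fold between classes or 1.5-fold between gates, an interval that excluded 1, 20 UMIs over both arms and 20 cells in each. Against a group with no UMI, the bound used 3 counts over the group. The expected level of a mixture was set by C1qa, C1qb and C1qc. Scrublet (scanpy 1.11.5) marked 8, 4, 3 and 10 cells in the 4 libraries (0.17%, 0.097%, 0.316% and 0.532%), which was taken as not having worked, and no cell was removed for it. Clusters (leidenalg 0.10.2, without the 41 genes) and TMM factors (edgeR 4.0.16 in R 4.3.3) were alternatives, beside other folds, UMI minimums, cell filters, marker limits, totals, thinned cells, cells of equal weight and removal of macrophage RNA. Promoters came from RefSeq for GRCm38.p6 and gene positions from GENCODE for mm10. The named genes were the 5 highest and 5 lowest ratios of a contrast, the leading gene of each role and, in the wider list, the 3 highest and 3 lowest, given where a contrast is described at length. Some genes of the wider list are not reported here by name. The genes, lists and contrasts were chosen with earlier results of these data known.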

Additional observations from a re-analysis of the deposited data

Results flagged for a closer look

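Between the gates of the CD45 sort, 3 genes were higher in the ZsG-positive library in some classes and lower in others, and the difference between the classes was not tested. Ctsl had a ratio of ZsG-positive over ZsG-negative cells of 9.25 in T-like, 2.77 in DC2-like, 2.58 in NK/ILC-like and 2.13 in classical monocyte-like cells, and of 0.594 in pDC-like cells, the class where its level was highest. Npc1 had ratios of 1.66 in T-like and 0.520 in pDC-like cells. Napsa had ratios of 3.84 in T-like, 1.62 in pDC-like and 1.59 in NK/ILC-like cells, and of 0.647 in classical monocyte-like cells. The ratios in pDC-like cells rest on 25 ZsG-positive cells. Of these 32% led the next class by only 1 marker, against 3.69% of the ZsG-negative pDC-like cells, and their macrophage-marker levels are given above. How many of all genes were called in both directions was not counted.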

How the results depend on the processing

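Of the counts of genes higher in the 26 contrasts, 252 of the values under an alternative were within 1.5 times the count reported and 52 were not. Counts of genes lower kept within 1.5 times in 264 values and moved in 40. How large a share of all genes was called under each alternative is not reported, here or in the sections above. Counts under an alternative therefore do not show whether the lysosome genes moved more than other genes. With 1.5-fold between classes the count went from 7 to 13 in macrophage-like over classical monocyte-like cells (8 to 14 in the T cell sort), from 3 to 9 in DC2-like over DC1-like, from 1 to 2 in hypoxic macrophage-like, from 2 to 4 in non-classical over classical monocyte-like and from 2 to 11 in NK/ILC-like over T-like cells. With 2-fold between gates it went from 13 to 7 in classical monocyte-like, 9 to 4 in DC2-like and 3 to 1 in pDC-like cells of the CD45 sort, and from 12 to 7 in CD8 T-like, 2 to 0 in CD4 conventional T-like, 1 to 0 in macrophage-like and 1 to 0 in classical monocyte-like cells of the T cell sort.

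With clusters the counts were 12 for macrophage-like over classical monocyte-like cells, 1 in place of 0 for cycling macrophage-like cells, 0 for non-classical over classical monocyte-like cells, and 4 and 11 for the gates in classical monocyte-like and NK/ILC-like cells. Contrasts of DC1-like or DC2-like cells could not be run with clusters, since the cluster that held them tied between classes and stayed unnamed. Without cells that led by only 1 marker, an alternative chosen after seeing the data, the counts were 11 for macrophage-like over classical monocyte-like and 7 for DC2-like over DC1-like cells. TMM factors gave 0 for non-classical monocyte-like cells and 3 in place of 1 for the gate in classical monocyte-like cells of the T cell sort. No filter on cells gave 4 for NK/ILC-like over T-like cells and 2 for that gate. Equal weight for cells gave 6 for DC2-like over DC1-like cells, 5 for CD4 conventional T-like cells and 2 for that gate. A minimum of 100 UMIs gave 1 for non-classical monocyte-like, 0 for CD4 conventional T-like and 5 in place of 9 for Treg-like cells.

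Thinned cells gave 5 for DC2-like over DC1-like and 1 for cycling macrophage-like cells, 1 for the gate in pDC-like cells of the CD45 sort, and in the T cell sort 6 for CD8 T-like, 1 for CD4 conventional T-like, 3 for Treg-like, 0 for macrophage-like and 3 for classical monocyte-like cells. Doublet scores came from Scrublet, whose calls were taken as not having worked. Without the top 5% of these scores the counts of the T cell sort were 4 for T-like, 3 for CD8 T-like, 1 for CD4 conventional T-like, 3 for Treg-like and 1 in place of 0 for pDC-like cells. Without lymphoid cells that had a macrophage-marker UMI they were 6, 3, 0 and 2 for T-like, CD8 T-like, CD4 conventional T-like and Treg-like cells, and 14 in place of 29 for T-like cells of the CD45 sort. With the macrophage profile taken off they were 4, 5 and 5 for the CD8 T-like, CD4 conventional T-like and Treg-like cells, and 9 in place of 17 for NK/ILC-like cells of the CD45 sort. Fewer cells entered the thinned, doublet and marker alternatives. The cause of the moves was not tested for any alternative.

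Single genes were followed under the alternatives only if among the 5 highest or 5 lowest ratios of a contrast. Genes with no UMI in 1 arm or too few UMIs under an alternative were left out. Among those followed, a gene called in the main analysis changed direction in 5 cases, all in the T cell sort. Other called genes were not checked for this. Without the top doublet scores the log2 ratio was -0.75 for Lgmn in T-like, -0.38 for Lgmn in CD8 T-like and -0.79 for Psap in CD4 conventional T-like cells. With the macrophage profile taken off it was -0.037 for Cd68 in CD8 T-like cells, and without cells with a macrophage-marker UMI -0.070 for Psap in CD4 conventional T-like cells. Of the other values for these genes, 2709 kept their side of the limit, 73 fell short of it and 66 newly passed it. Direction was checked only for genes called in the main analysis. No paired analysis was possible because each condition had a single library.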
